A study of Mus musculus with 6 samples.

Results

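Intestinal master transcription factors are the DNA-binding proteins that give the gut epithelium its identity and keep its cells dividing or maturing in order. The chromatin at 9 genes for such factors was described here: Cdx1, Cdx2, Hnf4a, Hnf4g, Gata6, Klf5, Klf4, Elf3 and Sox9. Their regions were taken from a genome-wide list of open chromatin peaks by gene name, keeping each peak to which exactly 1 of these symbols had been attached. This gave 31 of 123510 peaks, against 61914 peaks that carry any gene name. The 31 peaks belong to 8 of the 9 genes, since no peak carries the name Klf4.

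The peaks come from ATAC-seq, in which a transposase cuts exposed DNA and tags it for sequencing, on nuclei of whole small intestinal crypts from C57BL/6 mice. Libraries from 3 wild type mice (WT) and from 3 mice with a Vil-cre-mediated knockout of Smarcad1 (KO) were compared to ask whether this chromatin remodeler shapes accessibility in the gut epithelium. Cre is driven there by the promoter of Villin, which is active in the intestinal epithelium, so the other cells of a crypt preparation keep the gene, and the ages of the mice are not given in the sources used here. No peak overlapped the Smarcad1 exons that Cre removes, so the table holds no check of the genotype; over its start, the log2 value averaged 8.15 ± 0.731 among WT mice and 8.10 ± 0.674 among KO mice (SD, n = 3).

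CDX1 and CDX2 are homeodomain proteins that set intestinal identity along the gut tube. HNF4A and HNF4G are related nuclear receptors that share targets among the genes of absorptive enterocytes, and GATA6 is a zinc finger protein of crypt and enterocyte programmes. KLF5 is found in dividing crypt cells and KLF4 in goblet and other mature cells. ELF3 is an epithelial ETS protein, and SOX9 marks stem, progenitor and Paneth cells at the crypt base. A peak marks DNA that is free enough of nucleosomes to be cut, at gene starts and at distant regulatory elements alike, and an open gene is not necessarily a transcribed one.

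Some of the DNA behind the results is given first, in the orientation and build stated (GRCm38). At gene starts, the 4 stretches chosen contrast starts inside a peak with starts outside any peak. They were taken from RefSeq promoter sequences of GRCm38.p6, which covered 4 of the 9 genes, with annotated exons trimmed off. The first start of Hnf4a and the start of Elf3 lie in peaks, although both are poor in CpG. A second RefSeq start of Hnf4a, at position 163547155 on chromosome 2, was not in a peak and lay 3.85 kb from the nearest one. The start of Klf4 is rich in G and C and was 16.88 kb from the nearest peak in the same annotation. Capitals mark a match to the KLF motif CCNCACCC or its reverse complement, where N is any base.

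Hnf4a first start, chr2:163506607-163506807, plus strand, in a peak: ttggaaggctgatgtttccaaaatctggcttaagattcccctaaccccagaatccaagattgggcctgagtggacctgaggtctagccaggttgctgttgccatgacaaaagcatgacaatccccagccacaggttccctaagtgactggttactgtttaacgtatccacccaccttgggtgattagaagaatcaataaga
Hnf4a second start, chr2:163546943-163547154, plus strand, not in a peak: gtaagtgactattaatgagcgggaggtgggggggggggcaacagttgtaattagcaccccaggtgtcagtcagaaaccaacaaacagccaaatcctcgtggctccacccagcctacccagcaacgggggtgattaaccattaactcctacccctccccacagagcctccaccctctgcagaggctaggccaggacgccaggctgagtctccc
Elf3 start, chr1:135258569-135258722, minus strand, in a peak: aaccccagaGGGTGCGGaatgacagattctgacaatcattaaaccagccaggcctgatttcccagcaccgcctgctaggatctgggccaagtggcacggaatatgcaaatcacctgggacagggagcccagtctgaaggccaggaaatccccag
Klf4 start, chr4:55532476-55532725, minus strand, not in a peak: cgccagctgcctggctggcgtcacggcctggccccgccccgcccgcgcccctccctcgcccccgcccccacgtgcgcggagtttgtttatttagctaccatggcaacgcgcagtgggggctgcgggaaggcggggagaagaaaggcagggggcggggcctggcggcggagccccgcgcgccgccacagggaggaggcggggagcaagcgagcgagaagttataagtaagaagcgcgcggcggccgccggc

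Away from the starts, the central 300 bp of 4 peaks are shown. They hold matches to CDX or GATA, the motifs most frequent in these peaks, and cover the range from A+T-rich to G+C-rich elements. They read on the plus strand of GRCm38. Capitals mark matches on either strand to the CDX motif TTTATNG, the GATA motif AGATAA or the ETS motif AGGAAGT. The peak past the end of Hnf4a holds 2 CDX matches, the Hnf4g peak at 105.69 kb holds 2 GATA matches, the Hnf4g peak at 18.17 kb holds a CDX and an ETS match, and the peak at the end of Cdx2 holds 1 CDX match. These stretches were 50.3%, 38.3%, 39.7% and 63.7% G+C, in that order.

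Hnf4a, past the gene end, chr2:163574551-163574850: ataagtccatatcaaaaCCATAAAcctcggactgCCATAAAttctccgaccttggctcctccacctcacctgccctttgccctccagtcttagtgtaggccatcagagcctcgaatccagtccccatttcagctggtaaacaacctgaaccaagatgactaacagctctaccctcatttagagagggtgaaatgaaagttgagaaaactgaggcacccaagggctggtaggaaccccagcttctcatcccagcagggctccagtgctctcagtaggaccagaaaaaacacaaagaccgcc
Hnf4g, intron, chr3:3613576-3613875: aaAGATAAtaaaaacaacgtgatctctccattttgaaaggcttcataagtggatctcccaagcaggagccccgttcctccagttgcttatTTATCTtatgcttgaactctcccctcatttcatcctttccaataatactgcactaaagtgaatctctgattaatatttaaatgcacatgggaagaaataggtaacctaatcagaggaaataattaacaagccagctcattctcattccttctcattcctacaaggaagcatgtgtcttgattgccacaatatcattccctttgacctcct
Hnf4g, intron, chr3:3526051-3526350: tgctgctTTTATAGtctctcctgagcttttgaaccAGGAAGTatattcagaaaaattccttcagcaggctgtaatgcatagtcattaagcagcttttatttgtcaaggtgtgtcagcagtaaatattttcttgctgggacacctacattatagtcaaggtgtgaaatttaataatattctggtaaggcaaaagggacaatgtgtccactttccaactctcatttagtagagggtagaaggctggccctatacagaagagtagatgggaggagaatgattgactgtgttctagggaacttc
Cdx2, past the gene end, chr5:147299701-147300000: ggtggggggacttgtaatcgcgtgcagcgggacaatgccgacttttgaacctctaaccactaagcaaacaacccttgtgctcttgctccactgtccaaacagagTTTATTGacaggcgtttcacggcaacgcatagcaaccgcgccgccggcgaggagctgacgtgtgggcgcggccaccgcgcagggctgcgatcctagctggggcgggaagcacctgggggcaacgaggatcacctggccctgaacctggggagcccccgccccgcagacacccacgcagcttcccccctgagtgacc

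Over all 31 peaks, motif matches in the central 300 bp were counted on both strands, for 6 motifs chosen as short forms of what these families bind. The CDX motif occurred in 9 of 31 peaks (29%) against 13.2% of all peaks, and the GATA motif in 10 of 31 (32.3%), 7 of them at Hnf4g, against 16.5% of all peaks. The KLF motif occurred in 6.45% of the 31 peaks and 12.6% of all, the ETS motif in 6.45% and 9.84%, the SOX motif AACAATG in 3.23% and 4.35%, and the HNF4 motif CAAAGTCCA in 0% and 1.31%. A match is a string of letters and not a bound site. Median G+C content was 48.3% in the 31 peak centres and 48.7% in all, but 39.7% in the 15 centres of Hnf4g. In the windows from 250 bp before to 50 bp after the annotated gene starts, the KLF motif was found at 5 of 9 genes (Elf3, Hnf4g, Sox9, Klf5 and Cdx1), against 17.8% of all protein-coding starts. In the same windows, GATA was found only at Hnf4a and CDX only at Cdx1, each against 10.2% of all starts.

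The 31 peaks were wide and strong. Their median width was 1500 bp against 750 bp for all peaks and 900 bp for all peaks with a gene name. Of the 31, 23 were wider than the median of all peaks. Similar gene lists had similar widths. The median was 1350 bp at other intestinal transcription factors and at intestinal target genes, 1500 bp at epithelial markers and 750 bp at factors of other tissues. Strength was measured as the mean linear value of the 3 WT libraries per kb of peak, in reads scaled to the largest library (normalized reads per kb). Its median was 162 in the 31 peaks, 88.2 in all peaks and 94.8 in all peaks with a gene name. Of the 31, 26 were above the median of all peaks and 14 were among the strongest 10%. Of the 31 peaks, 24 overlapped the gene they are named for, 5 of them over its start and 4 over its end, with 1 peak, at Elf3, over both. Another 2 lay upstream and 5 downstream. Widths ran from 300 to 9000 bp, and the 31 peaks covered 57300 bp in total.

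Hnf4g held 15 of the 31 regions. Its peaks on chromosome 3, from 3503101 to 3662700, run from before the gene start to past the gene end across a gene of 150.02 kb, and 10 of them lie wholly in introns. More peaks carry this name than is the case for 96.9% of named genes, although Hnf4g is also the longest of the 9 genes. Their median width was 900 bp and their median WT strength 145 normalized reads per kb, against 750 bp and 88.2 over all peaks. Over all peaks with a gene name the medians were 900 bp and 94.8, so the Hnf4g width was ordinary for named peaks. Of the 15, 10 were stronger than the median peak, 3 of them among the strongest 10%, and 5 were weaker. The strongest Hnf4g peak was not at the start but at a coding exon 126.17 kb into the gene (3633451 to 3634950), with 327 ± 126 normalized reads per kb in WT (SD, n = 3) against 145 ± 60.1 at the start peak (3506851 to 3508950).

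Elf3 showed the opposite layout, with 2 peaks in all. One of them ran for 9000 bp (chromosome 1, 135250501 to 135259500), from before the gene start, across the whole gene of 4.99 kb and past its end. In the table, 2 peaks are 9000 bp or wider. Along this block the WT strength was 237 ± 24.4 normalized reads per kb, and the second peak, downstream of the gene (135247951 to 135249450), had 244 ± 28.6. Klf5 held the strongest single peak of the 9 genes, over its start (chromosome 14, 99297601 to 99299850), with 510 ± 154 normalized reads per kb, above 99.8% of all peaks. Klf5 had another peak over a coding exon (99302851 to 99305850) at 210 ± 41.9 and one at the gene end at 95.2 ± 41.5.

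The caudal-related pair was open at both ends of each gene. Cdx2 had a 3900 bp peak over its start (chromosome 5, 147304051 to 147307950) at 221 ± 42.7 normalized reads per kb and one at the gene end (147298801 to 147300900) at 303 ± 103. Cdx1 on chromosome 18 had 4 peaks. The strongest was again over the gene end (61017151 to 61020000), at 284 ± 69.5, and an intronic peak (61024801 to 61026450) followed at 268 ± 83.1. The peak over the start of Cdx1 (61034401 to 61036800), at 118 ± 22.5, was the weakest of the 4, and the upstream peak centred at -3.30 kb had 148 ± 13.0. Of the 5 genes with a named start peak, Cdx1, Cdx2, Hnf4g and, by a small margin, Elf3 had a higher WT mean at another peak, and Klf5 had its highest at the start.

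Gata6, also on chromosome 18, had 2 narrow peaks of 750 bp, both in introns (11060701 to 11061450 and 11082001 to 11082750), at 107 ± 24.7 and 197 ± 44.3 normalized reads per kb. No peak covered its annotated start, and the nearer of the 2 lay 8.64 kb away. Sox9 had 1 named peak, past the gene end (chromosome 11, 112788151 to 112789350), at 104 ± 21.6. Hnf4a had 2 named peaks, one at a coding exon inside the gene (chromosome 2, 163551001 to 163553700) at 307 ± 68.2 and one just past the gene end (163573351 to 163576050) at 251 ± 25.3.

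The name column hides some of the open chromatin at these genes. Read by position, 35 peaks lie within 5 kb of the 9 genes in the GENCODE annotation, 4 more than by name. The peak over the start of Sox9 (112780951 to 112783200, 121 ± 26.2 normalized reads per kb) is listed under BC006965. The peak over the first start of Hnf4a (163505851 to 163508550, 174 ± 27.3) and 2 intronic Hnf4a peaks (173 ± 42.3 and 119 ± 14.1) are listed under 0610008F07Rik. Their KO minus WT changes were between -0.07 and 0.06 on the log2 scale. For Klf4 (chromosome 4, 55527143 to 55532466) no peak of any name lay within 5 kb. The nearest was an unnamed 2100 bp peak 11.54 kb beyond the gene end (55513501 to 55515600), at 265 ± 90.1 normalized reads per kb in WT, and its log2 value averaged 9.06 ± 0.527 among WT and 9.11 ± 0.809 among KO mice.

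**Figure D1:**
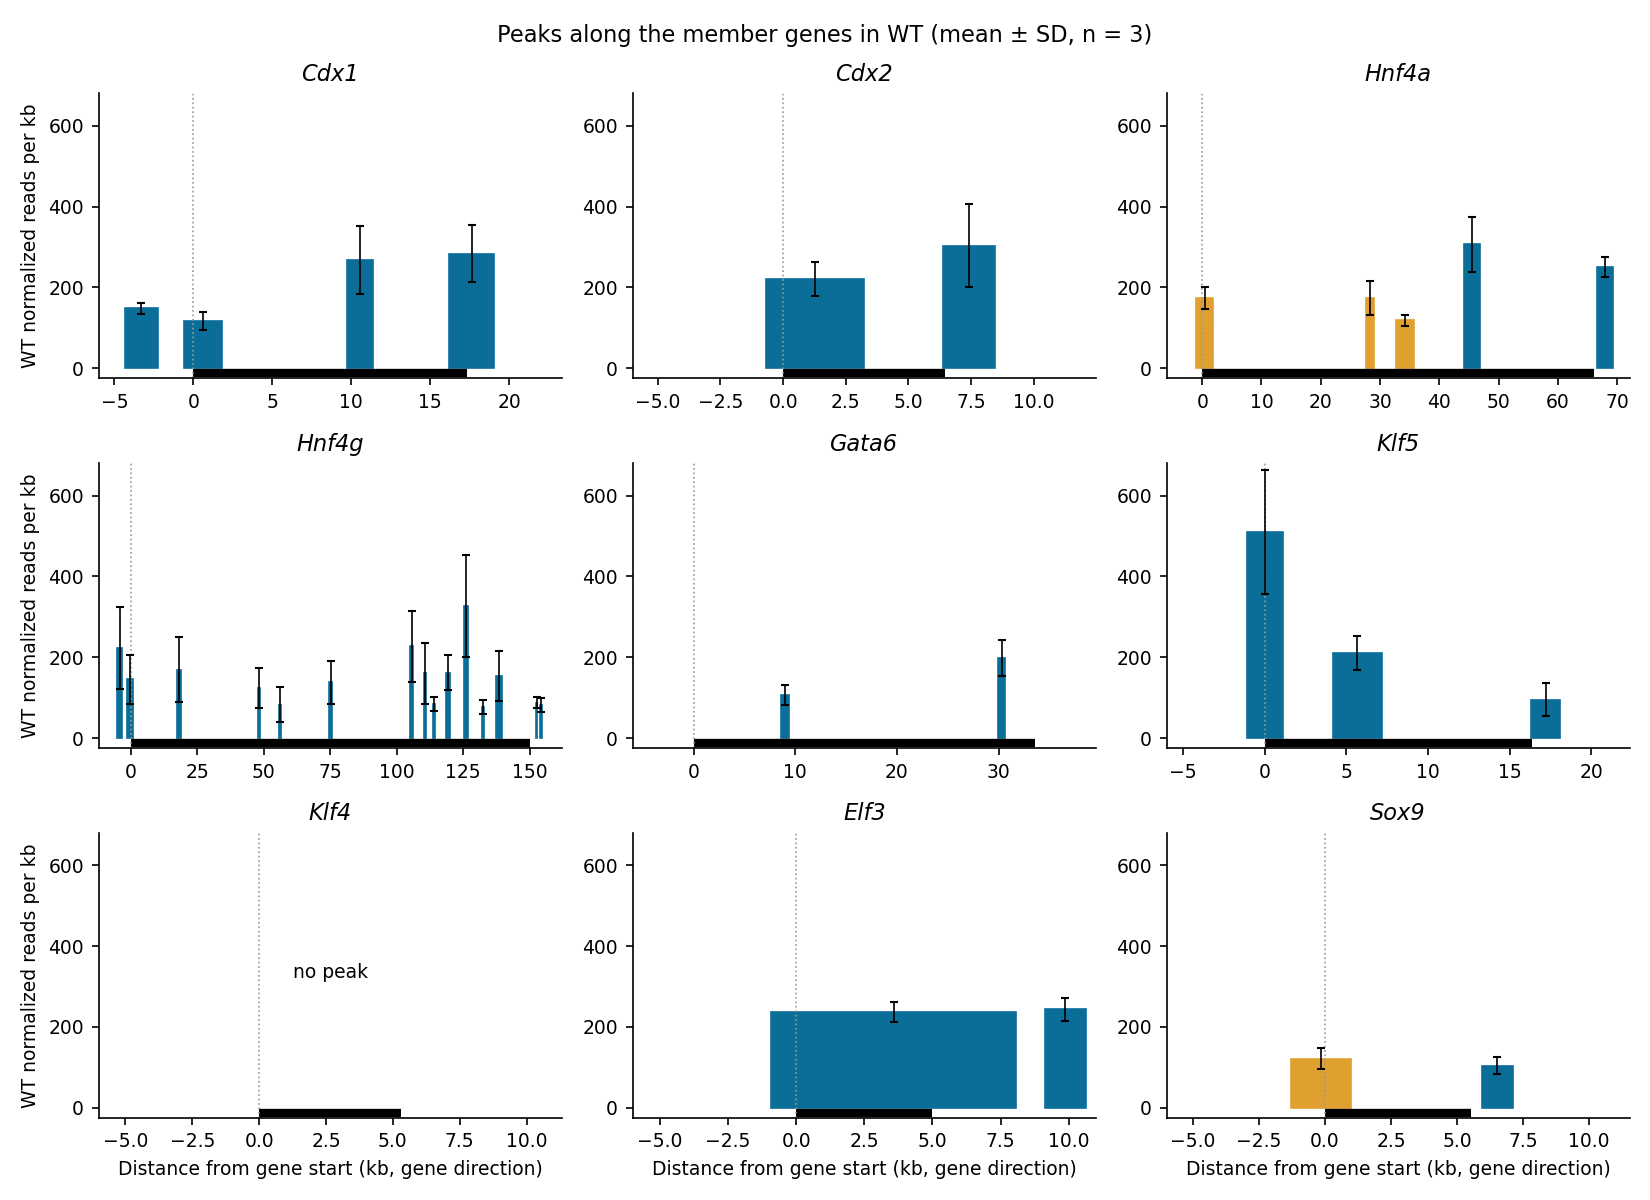
Peaks within 5 kb of each of the 9 genes, drawn by distance from the gene start in kb in the direction of the gene; bar width is peak width, bar height is the mean WT strength in normalized reads per kb, error bars are SD (n = 3) and the black bar is the gene. Blue peaks carry the gene's own name and orange peaks another name; Klf5 holds the strongest peak (510), Hnf4g has 15 and Klf4 has none.

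By position, the starts of 7 of the 9 genes were inside a peak, all but those of Gata6 and Klf4. Of 21931 protein-coding gene starts in the annotation, 53.8% were. This share rises steeply with the CpG content of the start, when all starts are split into 5 equal groups by their observed to expected CpG ratio, from 10.8% in the lowest group through 24.6%, 61.2% and 83.9% to 88.6% in the highest. Hnf4a was in the lowest group (ratio 0.149) and Elf3 in the next (0.313), and both starts were in a peak. Hnf4g (0.588) and Sox9 (0.583) were in the middle group with a start in a peak, where Gata6 (0.556) was not. Klf4 was in the highest group, with a ratio of 0.97, and its start was not in a peak. The deposited values cover called peaks only. At a start outside any peak, closed chromatin and a region that was not called cannot be told apart. For comparison, starts in a peak were counted for 10 of 18 other intestinal transcription factors, 5 of 12 intestinal target genes and 2 of 10 factors of other tissues.

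**Figure D2:**
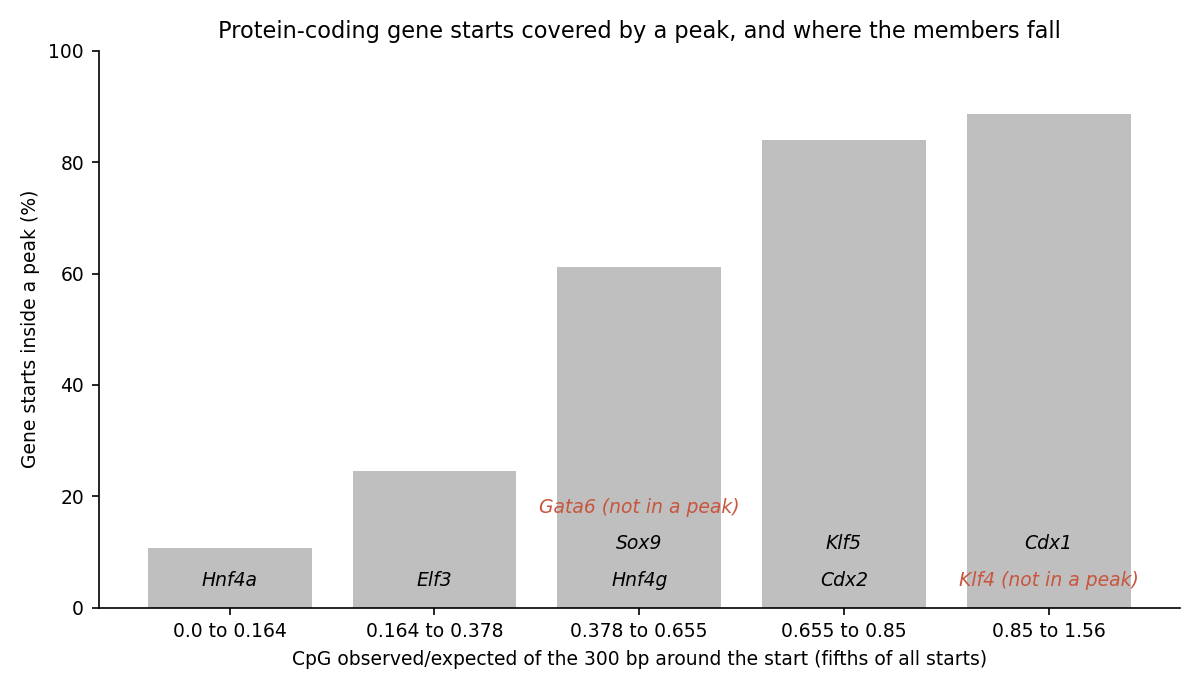
Share of protein-coding gene starts inside a peak (%, bars) in 5 groups of starts by the observed to expected CpG ratio of the 300 bp window at the start, with the 9 genes written in their group. Hnf4a and Elf3 are in a peak in the groups where 10.8% and 24.6% of starts are; Klf4 is not, in the group where 88.6% are.

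Per kb of peak, all peaks of a gene summed, Hnf4a, Klf5, Cdx2 and Elf3 had the highest WT levels and Sox9 the lowest. Mean WT strength was 279 ± 46.3 normalized reads per kb for Hnf4a, 276 ± 75.8 for Klf5, 250 ± 62.9 for Cdx2 and 238 ± 24.4 for Elf3. It was 205 ± 45 for Cdx1, 168 ± 63.9 for Hnf4g, 152 ± 22.6 for Gata6 and 104 ± 21.6 for Sox9 (SD, n = 3). The ranges of the WT values of neighbours in this order overlapped in every case. Compared within each library, however, Elf3 was above Cdx1, Cdx1 above Hnf4g and Gata6 above Sox9 in all 6 libraries, whereas Hnf4a was above Klf5 in 2 of 6, Klf5 above Cdx2 in 5, and Cdx2 above Elf3 and Hnf4g above Gata6 in 4 each. Hnf4a was denser than 93.0% of the 18004 named genes, Klf5 than 92.8%, Cdx2 than 89.8%, and Sox9 than 37.1%. These sums hold named peaks only, and so leave out 3 of the 5 Hnf4a peaks and the start peak of Sox9. With all peaks within 5 kb, Hnf4a came to 206 ± 31.4 normalized reads per kb, which moved it from first to place 4, next to Cdx1, while Sox9 came to 115 ± 24.2 and stayed last. The median over the 8 genes was 222 against 126 over all named genes, 167 over 17 other intestinal transcription factors, 156 over 9 intestinal target genes and 79.8 over 7 factors of other tissues.

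The comparison of KO with WT showed no called change at any of these regions. Of the 31 peaks, 20 were higher and 11 lower in KO, with a median KO minus WT of 0.06 on the log2 scale against -0.02 over all peaks, and a range of -0.52 to 0.40. In the limma fit over all 123510 peaks, 0 of the 31 passed an adjusted p-value of 0.05 (0% of all peaks did), and 0 had an unadjusted p-value below 0.05, against 2821 of all peaks (2.28%). With voom on the recovered reads, and also with the library number as a block, 1 of the 31 had an unadjusted p-value below 0.05. In both cases 0 passed after adjustment. Full separation of the 3 KO from the 3 WT values occurred in 0 of the 31 and in 8393 of all peaks (6.8%). The change was smaller than the SD between replicates in 28 of the 31 (90.3%), against 78.6% of all peaks. With 3 mice per group, the outermost bounds of the 31 95% confidence intervals were -1.29 and 1.26, both at Hnf4g peaks. At those peaks the intervals allow a change of up to 2.39-fold upward or down to 0.409 of the WT value. The sign of the median rested on single libraries: it was -0.186 without KO3, -0.052 without WT2 and 0.319 without KO2. In bulk nuclei, fewer cells of a type and less open chromatin per cell cannot be told apart.

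At the 5 peaks over gene starts that carry the gene's name, KO minus WT lay between 0.02 and 0.15. At the Klf5 start peak the log2 values were 10.19, 9.63 and 10.54 in WT1, WT2 and WT3 and 10.27, 9.36 and 10.80 in KO1, KO2 and KO3. The groups overlapped, with library 2 lowest and library 3 highest in both, and the difference was 0.02 (95% confidence interval -0.90 to 0.94). At the Elf3 block the values were 10.91, 11.06 and 11.20 in WT and 11.08, 10.69 and 11.45 in KO, a difference of 0.02 (-0.83 to 0.87). The KO values there enclosed all WT values.

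At the Cdx2 start peak, the values were 9.69, 9.48 and 10.02 in WT and 9.87, 9.38 and 10.33 in KO, a difference of 0.13 (-0.67 to 0.92). At the peak by the Cdx2 end they were 9.38, 8.67 and 9.71 in WT and 9.44, 8.51 and 9.61 in KO, a difference of -0.07 (-0.91 to 0.78). Both pairs of groups overlapped, and the 2 differences were of opposite sign and smaller than the replicate SD. The Cdx1 start peak had 7.98, 7.97 and 8.43 in WT and 8.37, 8.11 and 8.34 in KO, a difference of 0.15 (-0.49 to 0.78), and its gene-end peak differed by 0.08 (-0.72 to 0.89). All 4 Cdx1 peaks were a little higher in KO, by 0.08 to 0.21, with overlapping groups at each.

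The Hnf4a exon peak had 9.53, 9.46 and 10.02 in WT and 9.67, 9.31 and 10.25 in KO, a difference of 0.07 (-0.72 to 0.87). The Hnf4g start peak had 8.18, 7.54 and 8.77 in WT and 7.97, 7.63 and 9.01 in KO, a difference of 0.04 (-0.82 to 0.90). Its strongest peak, at the coding exon, had 8.79, 8.37 and 9.45 in WT and 8.92, 8.45 and 9.46 in KO, a difference of 0.07 (-0.74 to 0.88). In each of these the spread within a group was several times the difference between the groups.

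The 5 smallest unadjusted p-values of the 31 all belonged to Hnf4g, at peaks within or past the gene with WT strengths from 82.4 to 138 normalized reads per kb. The smallest was at the intronic peak 75.17 kb from the start (3582751 to 3583650), where the log2 values were 7.06, 6.16 and 7.38 in WT and 6.65, 5.65 and 6.75 in KO. The highest KO value lay below WT1 and WT3 but above WT2, and KO minus WT was -0.52 (-1.29 to 0.25, limma adjusted p = 1). Each KO value was below the WT value of the same library number. With that number as a block in limma, the unadjusted p-value was 0.00689 and the adjusted one 0.442. That block gave 8491 of all 123510 peaks an unadjusted p-value below 0.05. With voom, the unadjusted limma p-value of this peak was 0.0401. The intronic peak at 48.32 kb differed by -0.40 (-1.23 to 0.42), while the one at 56.20 kb differed by 0.40 (-0.46 to 1.26). The 2 peaks past the gene end, at 152.57 and 154.29 kb, differed by 0.40 (-0.27 to 1.07) and 0.31 (-0.24 to 0.87). They are among the shallower regions, with as few as 9 recovered reads in a library at the peak at 152.57 kb. Over all 15 Hnf4g peaks, 7 were higher and 8 lower in KO with a median of -0.00, and over the 16 peaks of the other genes 13 were higher and 3 lower with a median of 0.08.

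The Gata6 intronic peaks differed by 0.13 (-0.55 to 0.82) at 9.01 kb and by -0.18 (-0.78 to 0.42) at 30.31 kb. The latter had 6.86, 7.51 and 7.18 in WT and 6.85, 6.98 and 7.17 in KO, and unlike most of the 31 it was not lowest in library 2 of WT. The Sox9 peak past the gene end had 6.81, 6.76 and 7.28 in WT and 6.98, 6.69 and 7.55 in KO, a difference of 0.13 (-0.52 to 0.77).

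**Figure D3:**
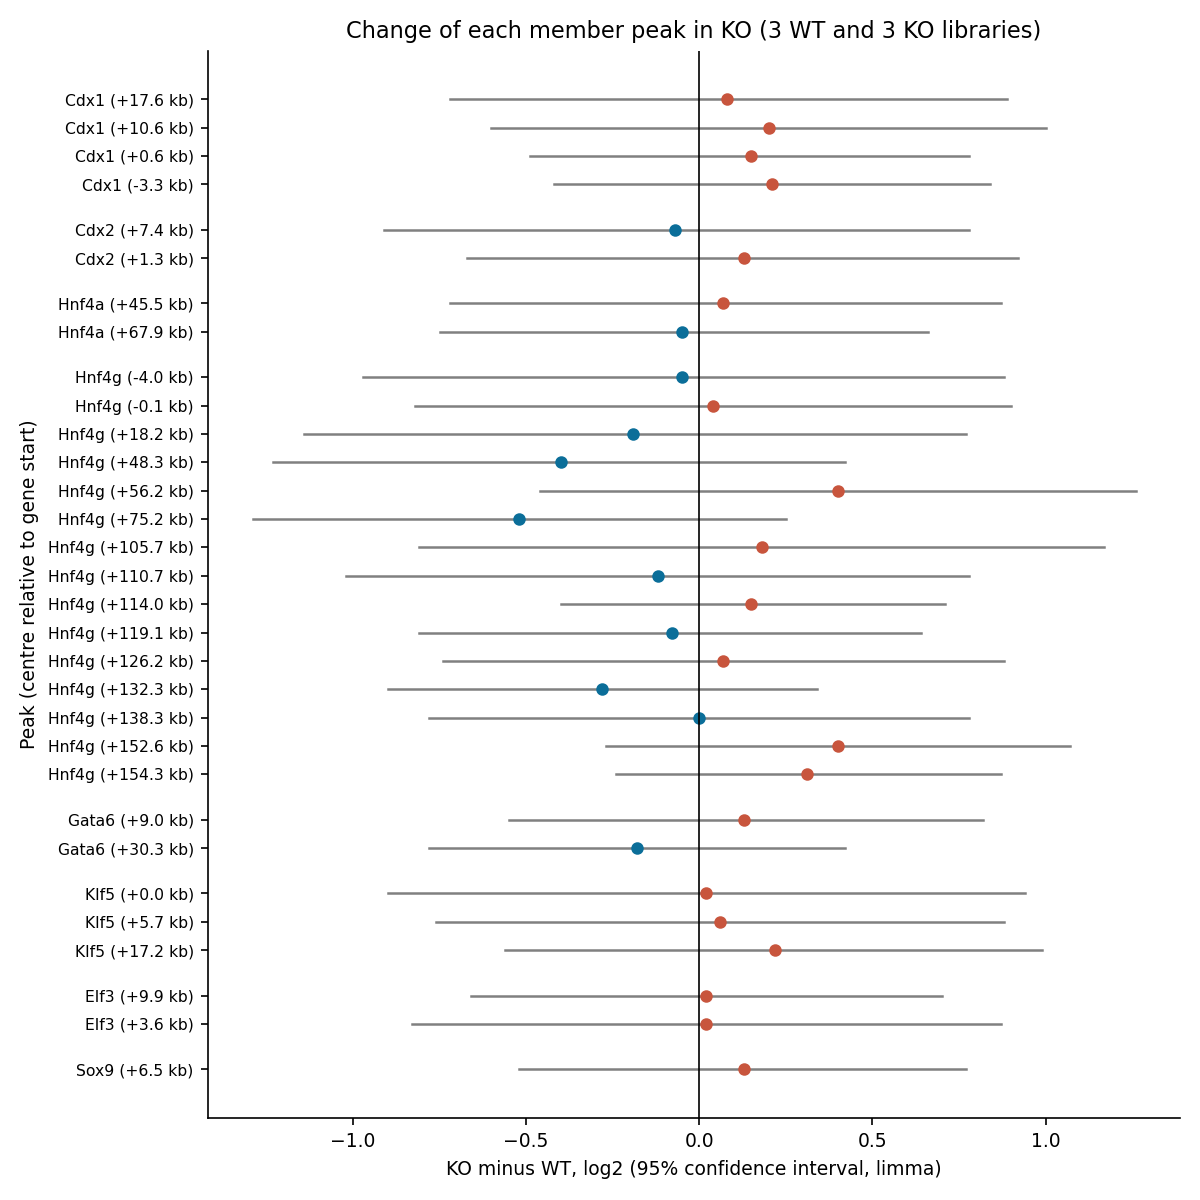
KO minus WT on the log2 scale (points) with 95% confidence intervals from limma (lines) for each of the 31 peaks, labelled by gene and by the distance of the peak centre from the gene start; red points are higher and blue points lower in KO, with 3 libraries per group. Every interval crosses 0, and the largest differences, from -0.52 to 0.40, are at Hnf4g.

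Summed over its peaks, each gene was close to its WT level in KO. The mean strength in KO was 287 ± 75.3 normalized reads per kb for Hnf4a, 299 ± 132 for Klf5, 263 ± 86.7 for Cdx2 and 246 ± 63.2 for Elf3. It was 230 ± 59.6 for Cdx1, 171 ± 74.7 for Hnf4g, 147 ± 36.4 for Gata6 and 116 ± 36.3 for Sox9 (SD, n = 3). KO minus WT on log2 sums was largest for Cdx1, at 0.15 (-0.49 to 0.79), and for Sox9, at 0.13 (-0.46 to 0.71). It was 0.05 for Klf5 (-0.74 to 0.84) and Cdx2 (-0.66 to 0.76), 0.02 for Hnf4a (-0.59 to 0.64) and Elf3 (-0.57 to 0.61), 0.00 for Hnf4g (-0.82 to 0.82) and -0.06 for Gata6 (-0.60 to 0.47). In the limma fit over 18004 gene names, 0 of the 8 genes passed the adjusted threshold (0% of all), 0 had an unadjusted p-value below 0.05 (0.761% of all) and 0 had groups that did not overlap (3.34% of all). Exact two-sided permutation tests gave p = 0.7 to 1, where 3 libraries against 3 cannot go below 0.1. The intervals allow a change of up to 1.79-fold upward or down to 0.566 of WT. Without KO3, KO minus WT was below 0 for all 8 genes, from -0.323 at Hnf4g to -0.026 at Cdx1.

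**Figure D4:**
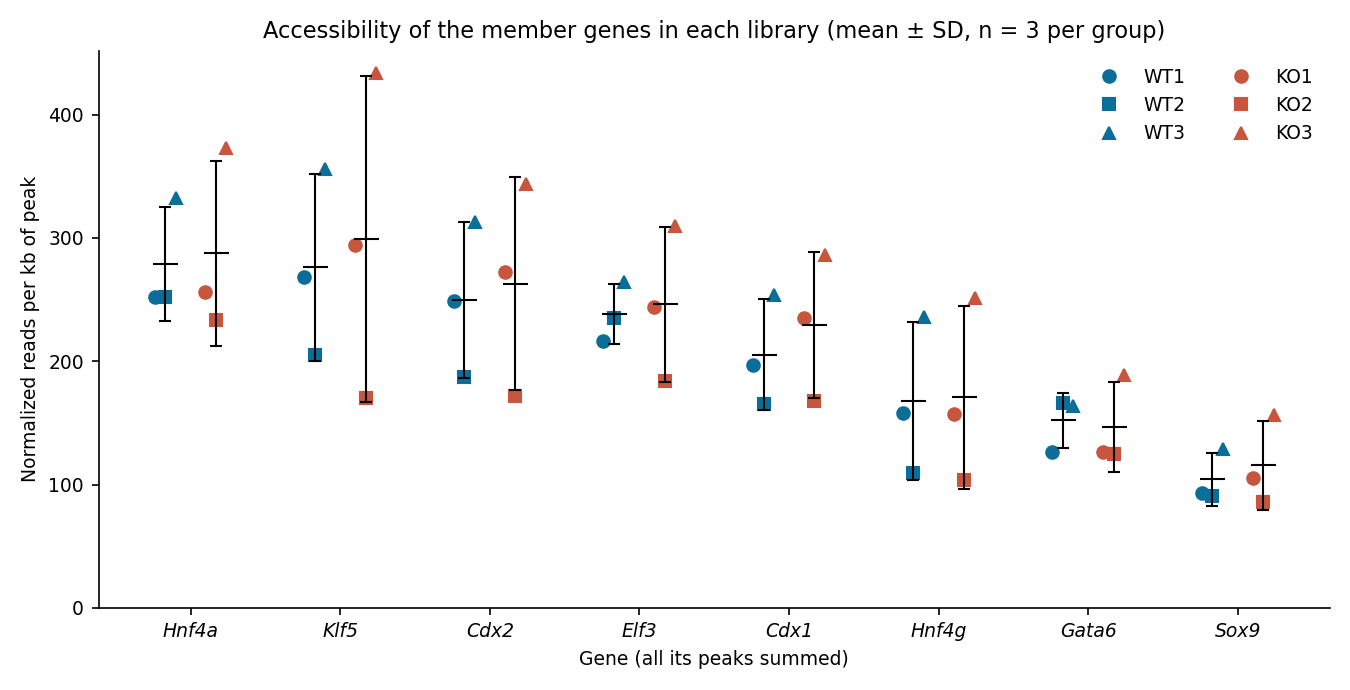
Normalized reads per kb of peak for each gene, all its named peaks summed, in 3 WT (blue) and 3 KO (red) libraries; marker shape gives the library number, and black bars are mean ± SD (n = 3 per group). WT and KO overlap at all 8 genes, and the triangles of library 3 are the highest in every KO group.

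What separated the libraries at these regions was the library number more than the genotype. Library 2 was the lowest of its group in both WT and KO at 24 of the 31 peaks (77.4%), against 38.9% of all peaks, and library 3 was the highest in both at 26 (83.9%), against 37.3%. The median over the 31 peaks, relative to each peak's own mean over the 6 libraries, was -0.32 in WT2 and -0.46 in KO2, and 0.34 in WT3 and 0.53 in KO3, on the log2 scale. In WT1 and KO1 it was -0.10 and 0.04. Strong peaks in general shared this pattern. Among the strongest 10% of all peaks, library 2 was lowest in both groups at 77.9% and library 3 highest in both at 92.4%, and among the weakest 50% the shares were 27.4% and 22.2%. After each library was centred on its median, library 2 was lowest in both at 14 of the 31 (45.2%) and library 3 highest in both at 24 (77.4%), against 23.2% and 26.7% of all peaks and 58% and 79.6% of the strongest 10%. The labels do not say what a shared number stands for, and WT3 is also the deepest library and KO3 the shallowest. Unlike depth, the median log2 value of all peaks followed the number. It was 5.88, 5.63 and 5.93 in WT1, WT2 and WT3 and 5.82, 5.69 and 5.90 in KO1, KO2 and KO3. What lies behind this was not tested. The median SD within groups was 0.493 at the 31 peaks and 0.363 over all peaks.

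**Figure D5:**
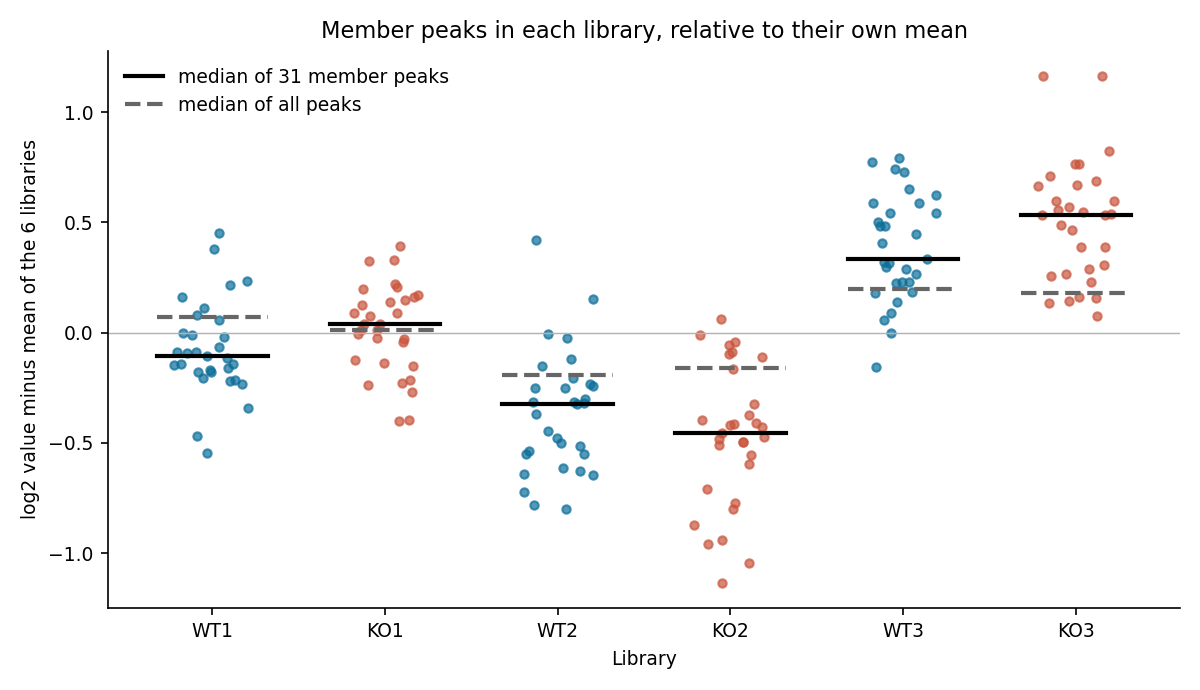
Log2 value of each of the 31 peaks minus its mean over the 6 libraries (points), by library, WT in blue and KO in red; solid lines are the medians of the 31 peaks and dashed lines those of all 123510 peaks. The medians lie at -0.32 and -0.46 in WT2 and KO2 and at 0.34 and 0.53 in WT3 and KO3.

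The lists compared with these genes had no called peak either, where 0% of all 123510 peaks were called and 2.28% had an unadjusted limma p-value below 0.05. Of 91 peaks at 17 of 18 other intestinal transcription factors, such as Gata4, 0 were called and 1 had an unadjusted p-value below 0.05, with a median KO minus WT of 0.05. Of 42 peaks at 9 of 12 genes that such factors act on, 0 were called and 0 had an unadjusted p-value below 0.05, with a median of -0.01. Markers of the cell types a crypt preparation can hold were examined beside these values. By name, peaks were found at 5 of 7 epithelial markers, and no peak carries the name Epcam or Vil1. Their summed levels were 3398 to 4573 normalized reads in WT and 3685 to 5511 in KO. The sums for the 4 immune markers with a peak were 329.8 to 430.3 in WT and 338 to 417 in KO. For 6 stromal and muscle markers they were 885 to 1153 and 942 to 1209, and for 3 endothelial markers 1098 to 1280.0 and 1044 to 1369. WT and KO ranges overlapped for every list, 0 peaks were called in any, and the defining genes Cd3e and Cd79a had no peak by name. Their part in the values above was not tested.

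The WT libraries held 6180717 to 16301164 reads in peaks and the KO libraries 4339306 to 7721797, as recovered from the deposited values. At the 31 peaks, single libraries held 9 to 2357 reads, and 20 of the 31 had at least 50 reads in every library. Nothing in the labels ties the mice to separate litters or days, so p-values measure the spread between these 6 samples only.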

How the data were processed

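ATAC-seq libraries from nuclei of small intestinal crypts were analysed for 3 WT and 3 Smarcad1-KO mice, grouped and numbered as in their titles. Reads were trimmed by the authors with Trim Galore (0.4.1), mapped them to GRCm38 with Bowtie2 (2.2.5), removed duplicates and filtered on mapping quality in SeqMonk. They called a single MACS peak set there; which libraries were pooled for it is not given in the sources used here. The deposited values are log2 read counts scaled to the largest library, and peaks carry the name of a gene within 5 kb. A second deposited table holds adjusted p-values of the authors' own edgeR comparison and was not used.

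On the linear scale, 100% of the values in each library were whole multiples of the value of 1 read (tolerance 0.02), which gave the depths. The printed intervals come from the spread between libraries in limma. Each peak, and each gene name with its linear values summed, was tested with limma (3.58.1, R 4.3.3; lmFit, eBayes with trend, two-sided) on log2 values of all 6 libraries without a block. P-values were Benjamini-Hochberg adjusted over all 123510 peaks or 18004 names, with a threshold of 0.05. The test was chosen for the deposited log2 scale in place of the study's count test; the recovered reads entered only the voom alternative. Single values were compared by exact permutation tests (Python 3.11.15, scipy 1.17.1). Gene positions came from GENCODE and sequences from RefSeq, both GRCm38. For each gene the strongest peak and the peak nearest the start were named, plus the 5 peaks with the smallest unadjusted p-values. The members, lists and motifs were chosen with earlier results of these data known. The alternatives were other scalings, voom on recovered reads, a pseudocount of 5, a minimum mean of 20, a threshold of 0.1, a replicate block, each library left out, peaks by position, and, chosen after seeing the data, both number 2 libraries left out and the order of genes by position.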

Additional observations from a re-analysis of the deposited data

How the results depend on the processing

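The number of called peaks at the 9 genes was 0 of 31 under every alternative run, and that of called genes 0 of 8, with 0 to 1 peaks at an unadjusted p-value below 0.05. Most settings called almost no peak anywhere. Of all 123510 peaks, 2 were called with median centring, 3 with quantile normalization and 3 with voom. Under such settings a count of 0 of 31 says little about stability. A minimum mean of 20 removed 0 peaks and so tests nothing. Over 26 named results, 289 of 338 alternative values kept their direction and 49 changed sign, none of them called under any setting. The 289 include all values from the minimum mean and from the replicate block. A block leaves the estimates of this balanced design unchanged, so neither setting could turn a sign. Sox9 enters both as a sum and as the 1 peak in that sum. Leaving out 1 library moved the median change of the 31 peaks (0.058) to between -0.186 (without KO3) and 0.319 (without KO2), and the median of all peaks from -0.144 to 0.083; without both number 2 libraries, chosen after seeing the data, it was 0.171. Read by position, it was 0.038.

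With 1 library left out, the log2 change of summed peaks ranged from -0.026 to 0.361 for Cdx1, -0.176 to 0.326 for Cdx2, -0.181 to 0.160 for Hnf4a, -0.323 to 0.313 for Hnf4g, -0.259 to 0.038 for Gata6, -0.268 to 0.406 for Klf5, -0.165 to 0.213 for Elf3 and -0.112 to 0.319 for Sox9, whose 1 peak has the same range. At single peaks it ranged from -0.161 to 0.353 at the Cdx1 gene end, -0.106 to 0.369 at the Cdx2 start and -0.356 to 0.272 at the Cdx2 end, -0.182 to 0.289 at the Hnf4a exon, -0.365 to 0.342 at the Hnf4g start, -0.186 to 0.362 at the strongest Hnf4g peak, -0.080 to 0.794 at the Hnf4g peak at 56.20 kb, -0.218 to 0.372 at the Gata6 peak at 9.01 kb, -0.305 to 0.414 at the Klf5 start, and -0.170 to 0.210 and -0.132 to 0.227 at the Elf3 block and the peak beside it. Without a change of sign, it ranged from -0.873 to -0.170, -0.839 to -0.070, 0.307 to 0.533 and 0.159 to 0.469 at the Hnf4g peaks at 75.17, 48.32, 152.57 and 154.29 kb, from 0.066 to 0.298 at the Cdx1 start and from -0.345 to -0.018 at the Gata6 peak at 30.31 kb.

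Other signs that turned were Hnf4g sums with median centring (-0.019), quantile normalization (-0.004) or the mean of log2 values (-0.005), Elf3 sums with median centring (-0.003), the Elf3 block with quantile normalization (-0.005), the Klf5 and Hnf4g starts with voom (-0.029 and -0.036), and Gata6 sums without both number 2 libraries (0.107). Ranked by the strongest peak in place of the sum, 3 of 8 genes kept their place (Klf5 led with 510 normalized reads per kb), and with all peaks within 5 kb, chosen after seeing the data, 4 of 8 (Hnf4a fell to place 4). The changes of sign listed here stay well inside the confidence intervals given for KO minus WT. No interval was computed for the order of genes.

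Across all peaks, deviations from the group mean were correlated between the WT and KO libraries of the same number. The correlation was 0.0361, 0.418 and 0.407 for numbers 1, 2 and 3. The labels do not say whether a shared number pairs the mice. With the replicate block, 272 of all peaks and 37 of all genes were called, none at the 9 genes, where the median stayed at 0.058 and the smallest adjusted p-value from limma was 0.442. Without both number 2 libraries 143 of all peaks were called, and without KO2 alone 30, again 0 of the 31.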
